A study of Rattus norvegicus with 18 samples.

Results

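The genes described here were 8 components of trophic signalling: the ligands Bdnf, Ntf3, Gdnf and Fgf2 and the receptors Ntrk2, Ntrk3, Ngfr and Gfra1. They were chosen by name, each as the row carrying that name, ignoring case, in the count files of all 18 libraries, which gave 8 of 31463 rows. RNA was measured in primary neuro-glial cultures of rat brain cortex, a mixture of neurons and glia from newborn Wistar rats grown with cytosine arabinoside to limit glial division, and the libraries formed 6 groups of 3. Control cultures received no glutamate. Glutamate cultures received 100 µM glutamate, the model of excitotoxicity, in which excess glutamate overactivates its receptors and damages neurons. Memantine cultures received 100 µM glutamate with 100 µM memantine, a blocker of NMDA-type glutamate receptors. Glutamate_vesicles, Glutamate_secret and Glutamate_BPC cultures received 100 µM glutamate after pretreatment, 1 day earlier, with a secreted preparation, for the vesicles that of glial progenitor cells. The design names extracellular vesicles, a protein fraction and the total secretome, and the labels do not settle which of the last 2 is Glutamate_secret and which is Glutamate_BPC. All groups shared the rat strain, the cortex as source, day 10 in vitro and RNA collection 4 h after the model. No group received a secreted preparation without glutamate. Nothing in the labels says that the 3 libraries of a group came from separate dissections. The study's methods state that its experiments were repeated with unrelated cultures, but do not say which libraries came from which. The tests therefore measure the spread between these libraries, which may be technical.

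Neurotrophins are small secreted proteins that keep neurons alive and shape their synapses. Bdnf signals mainly through the receptor tyrosine kinase TrkB, the product of Ntrk2, and Ntf3 encodes neurotrophin-3, which signals mainly through TrkC, the product of Ntrk3. Ngfr encodes p75, a receptor that binds all neurotrophins with lower affinity. Gdnf binds the membrane-anchored co-receptor encoded by Gfra1, which then engages the kinase Ret, and Fgf2 encodes basic fibroblast growth factor, a mitogen and survival factor that glia make. In brain, Bdnf is a classical gene of neuronal activity, transcribed from several alternative start sites, and astrocytes carry much of the truncated form of TrkB. Gene-level counts separate neither the Bdnf start sites nor the full-length and truncated forms of Ntrk2.

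The DNA just upstream of a gene holds many of the elements through which activity reaches it. RefSeq start sites of the GRCr8 assembly were at hand for 5 of the 8 genes. The 250 bases before the start are shown for Fgf2 and Ntf3, whose levels differed most from Control, and for the Bdnf start that held the core of the cAMP response element (CRE), the site of the activity-dependent factor CREB. Capitals mark that core, CGTCA on either strand (TGACG on the other).
Fgf2, chr2:122164204-122164453, plus strand: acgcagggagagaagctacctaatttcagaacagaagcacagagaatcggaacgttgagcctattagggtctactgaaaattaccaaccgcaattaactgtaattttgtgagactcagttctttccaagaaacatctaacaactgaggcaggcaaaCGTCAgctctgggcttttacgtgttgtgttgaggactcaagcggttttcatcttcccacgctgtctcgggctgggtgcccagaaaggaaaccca
Bdnf, chr3:116637608-116637857, plus strand: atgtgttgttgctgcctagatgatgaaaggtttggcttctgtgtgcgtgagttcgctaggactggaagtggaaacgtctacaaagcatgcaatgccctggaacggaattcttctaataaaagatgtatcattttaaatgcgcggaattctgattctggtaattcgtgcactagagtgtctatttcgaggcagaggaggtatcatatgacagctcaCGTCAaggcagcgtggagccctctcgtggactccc
Ntf3, chr4:160670624-160670873, minus strand: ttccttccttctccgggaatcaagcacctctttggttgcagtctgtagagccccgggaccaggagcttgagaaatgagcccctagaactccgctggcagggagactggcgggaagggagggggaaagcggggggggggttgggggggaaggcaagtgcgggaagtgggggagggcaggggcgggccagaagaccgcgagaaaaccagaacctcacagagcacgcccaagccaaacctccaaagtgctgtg

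The CRE core lay at offset -94 from the start of Fgf2 and at offset -35 in 1 of 6 Bdnf starts, and Gdnf held it at offset -49. No core was found in the 3 Ntf3 starts or the Gfra1 start. Over all 33469 start sites of the same length, 18.2% held the core, which is also part of the full CRE. The full CRE (TGACGTCA) was in 1.59% of all start sites, the AP-1 site (TGACTCA or TGAGTCA) in 4.05% and the EGR site (GCGTGGGCG or CGCCCACGC) in 0.478%, and none of the members' windows held any of these. A match describes the letters and does not show that a factor bound there.

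Total counts per library ran from 8409574 to 17206354, and ribosomal RNA took 3.04% to 43.0% of them, the highest share being in Control 1, which left that library the least information. Levels are given as CPM, the counts relative to each library's size after TMM scaling in edgeR, and no lengths were used, so levels are compared between groups and not between genes. Neuron markers (6 genes, summed) reached 1907 to 2588 CPM in Control and 535 to 1040 CPM in Glutamate, and astrocyte markers (5 genes) 2089 to 5399 CPM and 4946 to 9385 CPM, so both cell types named by the labels were present. Memantine 3 stood apart from its group: its neuron markers summed to 596 CPM, against 3010 and 2039 CPM in Memantine 1 and 2. Microglial markers were at 16.5 to 380 CPM over all libraries, fibroblast and mural markers at no more than 18.7 CPM and the 3 endothelial markers in the files at no more than 3.34 CPM, with Rgs5 at 0 in 4 of the groups and Dcn also at 0 in Control. In such bulk RNA, fewer cells of a type and less RNA per cell cannot be told apart.

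Of the 8 genes, 6 passed the filter on low counts and were tested among 14398 genes with edgeR's quasi-likelihood test, and Gdnf and Ngfr did not pass. A gene was called at a Benjamini-Hochberg adjusted p below 0.05 over all genes, and a looser criterion, an unadjusted p below 0.05 and a change of more than 1.5-fold, was counted beside it. No member was called in any comparison, where 0% of all genes were called in the single-group comparisons, 1.2% in the 5 glutamate groups against Control and 0.00695% (1 gene) over the 6 groups. A missing call does not show that levels were equal. With the replicate number as a block, Fgf2 and Ntf3 were called in the 5 glutamate groups against Control. DESeq2 and the likelihood-ratio test called Fgf2 there. Past the looser criterion were Fgf2 in Glutamate against Control and Fgf2 and Ntf3 in the mean of the 5 glutamate groups against Control.

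**Figure D1:**
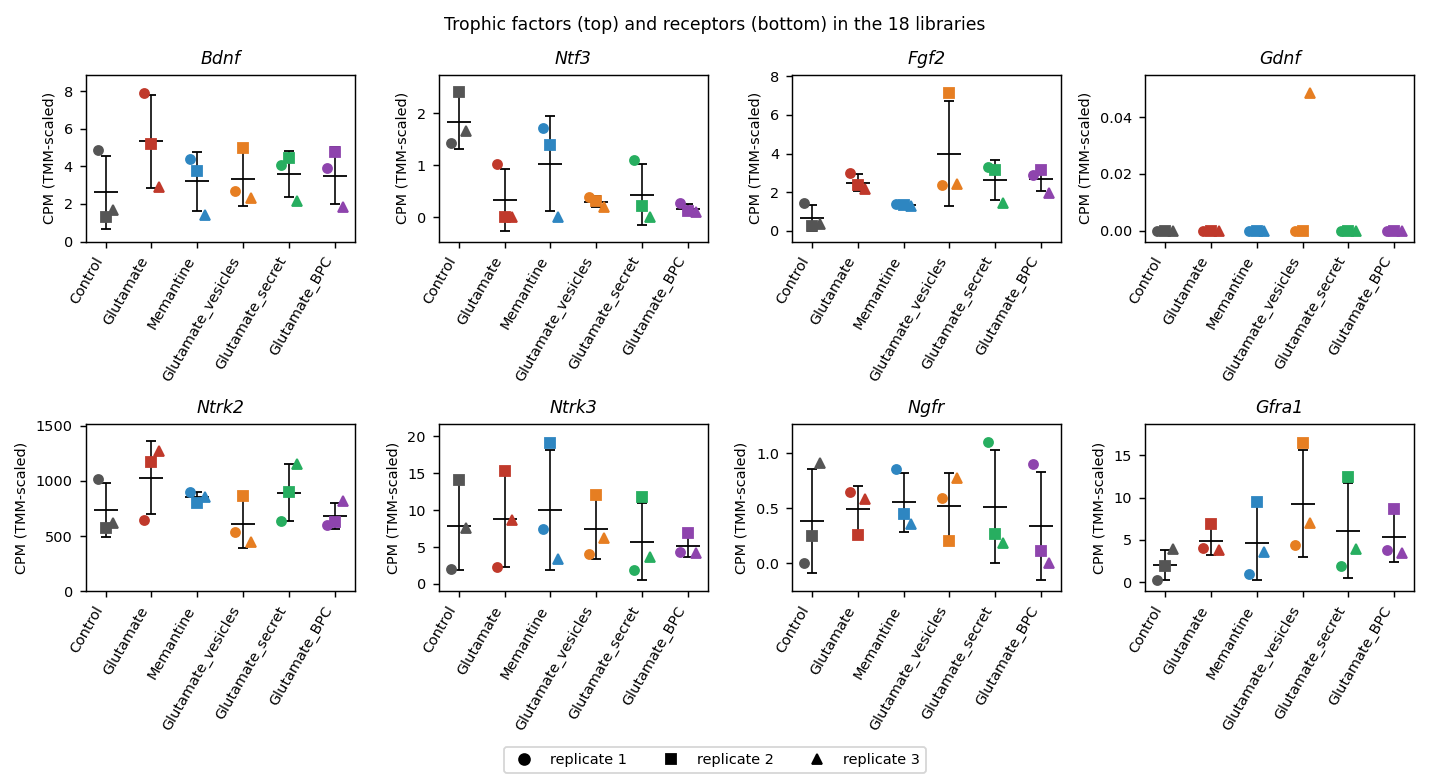
CPM at the TMM-scaled library size (vertical axes, each panel on its own scale) of the 4 ligands and 4 receptors in the 6 groups, with 1 symbol per library and, except for Gdnf, the mean with its SD as a bar. Fgf2 lay at 0.25 to 1.43 CPM in Control and at 2.14 to 2.97 CPM in Glutamate, Ntf3 was highest in Control, and the replicate 2 libraries (squares) carried the highest Ntrk3 of every group.

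Fgf2 was low in Control and higher after glutamate. The 3 Control libraries held 1.43, 0.25 and 0.32 CPM, from 5, 5 and 6 counts. Glutamate libraries held 2.97, 2.35 and 2.14 CPM and did not overlap with Control. The Memantine libraries lay close together and below every Glutamate library, at 1.40, 1.33 and 1.29 CPM. With vesicles the values were 2.39, 7.14 and 2.43 CPM, Glutamate_vesicles 2 being the highest of all libraries. The Glutamate_secret libraries held 3.31, 3.14 and 1.45 CPM. Those of Glutamate_BPC held 2.90, 3.17 and 1.95 CPM. Of the 15 libraries that had received glutamate, 12 lay above the highest Control library, the 3 exceptions being those of Memantine. That highest library was Control 1, whose 5 counts gave a 95% counting interval of 0.46 to 3.33 CPM. The Memantine libraries lay just below Control 1 and above Control 2 and Control 3. In the order of the group means (Glutamate_vesicles, Glutamate_BPC, Glutamate_secret, Glutamate, Memantine, Control) the neighbours Glutamate and Memantine were the only pair whose ranges did not overlap.

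In Glutamate against Control the log2 fold change of Fgf2 was 2.17 (SE 0.69, n = 3 and 3), with an edgeR adjusted p of 0.353 and an unadjusted p of 0.0068. It was the 1 member of the 6 tested past the looser criterion, which 8.07% of all genes passed, 2.1% of all genes in the upward direction. Control carried 16 of the 610 counts of Fgf2. With a minimum count of 10, Fgf2 passed the filter only through libraries that had received glutamate, where it was high. Its entry to the test was therefore not independent of this difference. Ranges that did not overlap were seen for Fgf2 and Ntf3, and for 12.2% of all genes. Without Control 1, the library with the most ribosomal RNA, the Fgf2 difference was 3.09 with an adjusted p of 0.196. Across the mean of the 5 glutamate groups against Control the log2 fold change of Fgf2 was 2.17 (SE 0.61, n = 15 and 3) with an edgeR adjusted p of 0.0991, where 1.2% of all genes were called and 12.6% passed the looser criterion. Leaving out Control 1 gave 3.09 and an adjusted p of 0.0522, and leaving out Control 2 an adjusted p of 0.454. DESeq2 gave an adjusted p of 0.0034 there and 0.0358 in Glutamate against Control, and edgeR's likelihood-ratio test, the test the study used, 0.0086 and 0.0853. With the replicate number as a block in edgeR, the adjusted p of Fgf2 in the 5 groups against Control was 0.0197. Over the 6 groups the edgeR F test of Fgf2 had an unadjusted p of 0.0162 (adjusted p 0.370), Fgf2 being 1 of 6 members below 0.05 as were 7.75% of all genes; without Control 2 or Control 3 that unadjusted p was 0.0664 or 0.0728.

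The rat Fgf2 gene overlaps Nudt6, which is transcribed from the opposite strand and makes an antisense transcript of Fgf2. The kit in the labels keeps strand, but the counting is not stated to have used it, and the Fgf2 estimates carried decimals in most libraries, as Salmon's division of shared reads can give. Nudt6, named here after its values were seen because of this overlap, differed by -0.45 on the log2 scale (SE 0.49, edgeR adjusted p 0.999) between Glutamate and Control and by -0.07 (SE 0.38, adjusted p 0.982) in the 5 glutamate groups against Control. Its levels were 2.32 to 5.14 CPM in Control and 2.10 to 3.21 CPM in Glutamate. Fgf2 made up 7.14% to 21.7% of the counts of both genes in Control and 40.0% to 56.1% in Glutamate, and the ranges of the Memantine libraries, 23.6% to 42.9%, reached the lower end of Glutamate.

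Ntf3 showed the opposite order. Control libraries held 1.43, 2.40 and 1.67 CPM, from 5, 49 and 31 counts. Among the Glutamate libraries only Glutamate 1 had any count, with 1.03 CPM from 8 counts, and the other two were at 0, where 3 counts would be 0.19 and 0.29 CPM. Memantine 1 and 2 held 1.72 and 1.39 CPM and lay within or just below the Control range, whereas Memantine 3 was at 0. Values with vesicles were 0.40, 0.32 and 0.19 CPM. Glutamate_secret libraries held 1.10, 0.22 and 0 CPM. In Glutamate_BPC the values were 0.27, 0.12 and 0.11 CPM, the lowest group mean. In all, 14 of the 15 libraries that had received glutamate lay below the lowest Control library, the exception being Memantine 1. Control and Memantine carried 85 and 41 of the 168 counts of Ntf3, so it passed the filter chiefly through the groups where it was high.

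The log2 fold change of Ntf3 was -2.55 (SE 1.45, n = 3 and 3) in Glutamate against Control, with an edgeR adjusted p of 0.765, although the ranges did not overlap. Leaving out 1 library at a time gave -7.70 (without Glutamate 1) to -1.88 (without Glutamate 2), the former with both remaining Glutamate libraries at 0, so that it is no bound and rests on the prior count. In the mean of the 5 glutamate groups against Control it was -2.31 (SE 0.91) with an edgeR adjusted p of 0.261 and an unadjusted p of 0.0221. There 2 of 6 members, Fgf2 and Ntf3, passed the looser criterion, which 3.63% of all genes passed upward and 8.97% downward. Both had passed the filter chiefly through groups where they were high, and Gdnf and Ngfr were not tested. The count of 2 is therefore no result about the members as a set. No member had ranges without overlap between all 15 glutamate libraries and Control, which 0.632% of all genes had. Leaving out Control 2 raised the unadjusted p of Ntf3 to 0.0941. Without Glutamate 1 the difference was -3.34 (adjusted p 0.0763). With the replicate number as a block, Ntf3 was called in the 5 groups against Control (edgeR adjusted p 0.0212).

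The summed neuron markers moved with Ntf3. Stmn2 and Tubb3 made up most of this sum, with Control means of 1268 and 703 CPM against 52.8 to 119 CPM for the others. Not every marker followed. Map2 held 45.7 to 56.7 CPM in Control and 99.4 CPM in Glutamate 2, where Ntf3 was at 0. Syt1 held 29.9 CPM in Control 3 and 75.8 CPM in Glutamate 1. Of the 6 neuron markers, 5 were lower in the 5 glutamate groups past the looser criterion and 1 at the adjusted p, with a median log2 fold change of -1.45 against 0.05 over all genes. Their summed level was 1907 to 2588 CPM in Control, 532 to 814 CPM in Glutamate_vesicles, 460 to 963 CPM in Glutamate_secret and 609 to 970 CPM in Glutamate_BPC. The 5 libraries with the highest neuron marker sums, Control 1 to 3 and Memantine 1 and 2, were also those with the highest Ntf3, and Memantine 3, at 596 CPM, was at 0 for Ntf3. Their part in the Ntf3 result was not tested. Astrocyte markers were higher in 0 of 5 cases past the looser criterion, with a median of 0.30. Their sums were 2089 to 5399 CPM in Control, 3295 to 8586 CPM in Memantine and 3042 to 11517 CPM in the 3 groups with secreted preparations, and the medians of the other glial and stromal lists were also above 0. Oligodendrocyte lineage markers were at positive values in 6 of 6, with 1 past the looser criterion and a median of 0.77, their sums being 167 to 455 CPM in Control and 429 to 765 CPM in Glutamate. Microglial markers were positive in 5 of 5 (0 past the criterion, median 1.03), with sums of 30.6 to 65.1 CPM in Control and 65.1 to 207 CPM in Glutamate. Of the 3 fibroblast and mural markers tested, 2 were positive and 1 passed (median 1.15), with sums of 3.71 to 10.3 CPM and 5.30 to 11.9 CPM. The 1 endothelial marker tested went the other way, at -1.13, and did not pass. In Glutamate against Control alone it was at -2.04 and passed. The endothelial sums were 1.83 to 2.57 CPM in Control and 0.83 to 1.03 CPM in Glutamate. The part of any of these lists in the Fgf2 result was not tested.

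**Figure D2:**
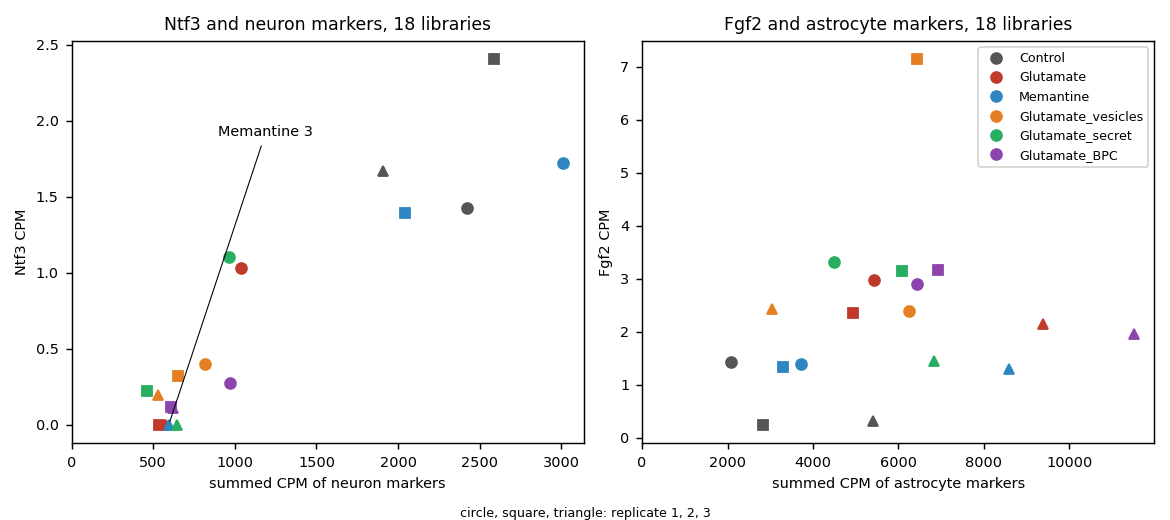
Left, Ntf3 CPM against the summed CPM of the 6 neuron markers; right, Fgf2 CPM against the summed CPM of the 5 astrocyte markers, with 1 point per library coloured by group and shaped by replicate number. The 5 libraries with the highest neuron marker sums held 1.39 to 2.40 CPM of Ntf3, and Memantine 3 lies at 596 CPM with Ntf3 at 0. Stmn2 and Tubb3 made up most of the neuron marker sums.

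Bdnf was detected in every library, and its groups overlapped throughout. Control libraries held 4.85, 1.33 and 1.67 CPM, with Control 1 above the other two. The Glutamate values were 7.88, 5.21 and 2.92 CPM, the highest group mean. With memantine they were 4.40, 3.78 and 1.44 CPM. Glutamate_vesicles, Glutamate_secret and Glutamate_BPC ranged from 2.33 to 4.98, 2.17 to 4.47 and 1.84 to 4.78 CPM. The log2 fold change in Glutamate against Control was 1.09 (SE 0.64; adjusted p 0.785 by edgeR) and in the 5 groups against Control 0.58 (SE 0.51, adjusted p 0.758). Without Control 1 the first was 1.82 with an unadjusted p of 0.0148 (adjusted p 0.407), past the looser criterion. The replicate 3 libraries held 1.44 to 2.92 CPM, against 2.69 to 7.88 CPM for replicate 1 and 1.33 to 5.21 CPM for replicate 2 libraries. Control 2 was the lowest of all libraries. In every group that received glutamate, the replicate 3 library was the lowest of its group.

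Gdnf was close to absent from these libraries: 1 count was found in all 18, in Glutamate_vesicles 3. The other 17 libraries were at 0, where 3 counts would be 0.12 to 0.86 CPM, so a lower level was not detectable at this depth. These limits cover counting error only.

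Ntrk2 was abundant, with 444 to 1272 CPM and at least 3560 counts in every library. Control libraries held 1016, 569 and 622 CPM. Glutamate libraries held 650, 1167 and 1272 CPM, with replicate 1 in the Control range and the other two above it. The values were 902, 796 and 851 CPM with memantine and 536, 859 and 444 CPM with vesicles. Glutamate_secret gave 634, 899 and 1147 CPM and Glutamate_BPC 603, 630 and 814 CPM. Glutamate differed from Control by 0.48 on the log2 scale (SE 0.41, adjusted p 0.972 by edgeR) and the 5 glutamate groups by 0.12 (SE 0.32, adjusted p 0.957). In Glutamate_vesicles against Glutamate it was -0.75 (SE 0.41, adjusted p 1.00, unadjusted p 0.0849).

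Ntrk3 followed the replicate number more than the treatment. The replicate 2 libraries held 6.92 to 19.1 CPM, those of replicate 1 1.89 to 7.41 CPM and those of replicate 3 3.45 to 8.66 CPM, and in every group the replicate 2 library was the highest. The Control libraries held 2.00, 14.0 and 7.65 CPM and the Glutamate libraries 2.33, 15.4 and 8.66 CPM, almost the same pattern. The replicate number also went with ribosomal RNA, which took 3.04% to 8.15% in replicate 2 libraries and 13.4% to 43.0% in replicate 1 libraries. Differences between cultures and differences in RNA quality or scaling cannot be told apart here. Against Control, the difference on the log2 scale was 0.13 for Glutamate (SE 0.82, adjusted p 0.999 by edgeR) and -0.15 for the 5 groups (SE 0.63, adjusted p 0.974).

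Gfra1, the co-receptor of the nearly absent Gdnf, was also higher in replicate 2 of each group that received glutamate. For this pattern too, cultures and RNA quality cannot be told apart. Control libraries held 0.29, 1.91 and 3.88 CPM, the first from 1 count. Glutamate libraries held 4.00, 6.86 and 3.79 CPM, of which Glutamate 3 overlapped with Control. The values were 0.97, 9.50 and 3.59 CPM with memantine, and 4.39, 16.5 and 7.05 CPM with vesicles, the highest group mean. Glutamate_secret gave 1.89, 12.5 and 3.98 CPM and Glutamate_BPC 3.80, 8.70 and 3.47 CPM. Of the 15 libraries that received glutamate, 9 lay above the highest Control library. On the log2 scale Gfra1 differed by 1.18 (SE 0.88, adjusted p 0.931 by edgeR) in Glutamate against Control and by 1.45 (SE 0.75, adjusted p 0.448, unadjusted p 0.0714) in the 5 groups against Control. DESeq2 and the likelihood-ratio test put the latter past the looser criterion, with unadjusted p of 0.0282 and 0.0481, and so did leaving out Control 3 (2.24, unadjusted p 0.0342) or Memantine 1 (1.54, unadjusted p 0.0429).

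Ngfr lay between 0 and 1.10 CPM with 111 counts over all libraries and did not pass the filter. With no filter its difference in Glutamate against Control was 0.12 on the log2 scale (SE 1.16, edgeR adjusted p 1.00). Control held 0, 0.25 and 0.92 CPM and Glutamate 0.65, 0.25 and 0.58 CPM, and the group means ran from 0.34 CPM in Glutamate_BPC to 0.55 CPM in Memantine, less than the spread within groups.

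Memantine and the secreted preparations were each set against Glutamate, a group that these 4 comparisons share. No member passed either criterion, where the looser one was passed by 5.06% of all genes with memantine, 1.08% with vesicles, 0.674% for Glutamate_secret and 1.06% for Glutamate_BPC. Fgf2 in Memantine was the 1 case in which the ranges of a member did not overlap with Glutamate, and 2.86% of all genes did so with memantine, 6.27% with vesicles, 3.41% for Glutamate_secret and 7.13% for Glutamate_BPC. There it differed by -0.88 on the log2 scale (SE 0.63, adjusted p 0.999 by edgeR). Against Glutamate, Fgf2 differed by 0.69 (SE 0.62) with vesicles, 0.09 (SE 0.62) in Glutamate_secret and 0.11 (SE 0.62) in Glutamate_BPC. The Bdnf differences were -0.73 (SE 0.62), -0.67 (SE 0.62), -0.56 (SE 0.62) and -0.59 (SE 0.62) for memantine, vesicles, Glutamate_secret and Glutamate_BPC in that order. All 4 lay about 1 SE below 0. The Ntf3 difference in Memantine was 1.71 (SE 1.43, adjusted p 0.999), 2.29 (adjusted p 0.515) without Memantine 3, and 1.03 to 6.85 over all fits without 1 library, the highest without Glutamate 1, when that group is at 0. For Gfra1 the largest of these differences was with vesicles, 0.93 (SE 0.86), and for Ntrk3 the most negative was in Glutamate_BPC, -0.77 (SE 0.83). Replicate numbers were taken to pair the libraries of Memantine, Glutamate_secret and Glutamate_BPC with those of Glutamate, since same-numbered libraries deviated together, though no label states a pairing. With the number as a block 1146, 463 and 481 genes passed the looser criterion, against 729, 97 and 153 without it, with 0 members in each fit. Leaving out Memantine 3 alone, 254 genes were called in Memantine against Glutamate and 1976 passed the looser criterion, again with 0 members.

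**Figure D3:**
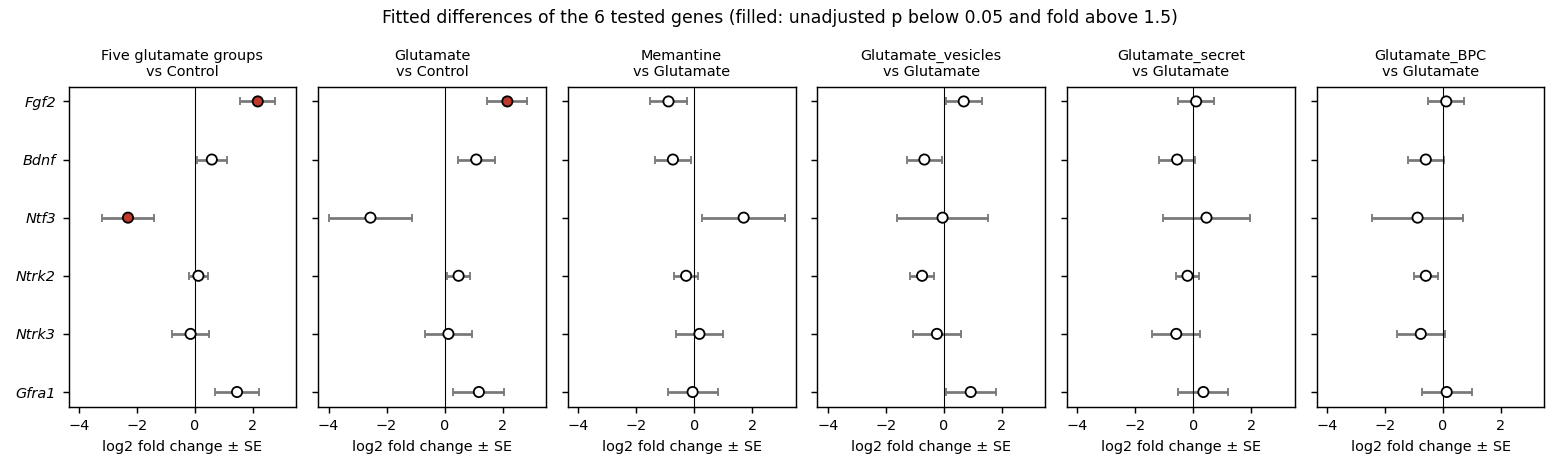
Fitted log2 fold change with its SE (horizontal axis) of the 6 tested genes in the 6 comparisons, filled where the looser criterion was passed. Fgf2 and Ntf3 in the 5 glutamate groups against Control and Fgf2 in Glutamate against Control are filled, and the panels against Glutamate hold open symbols.

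The related genes were taken from lists of the same pathways, chosen with earlier results of these data known. None was called at the adjusted p. In the 5 glutamate groups against Control the looser criterion was passed upward by 3.63% of all genes and downward by 8.97%. In the 5 glutamate groups against Control, 2 of 8 genes of the CNTF and LIF family (median log2 fold change 0.53) were higher past the looser criterion. These were Clcf1, a cytokine that binds the CNTF receptor, at 2.47 (SE 0.71, edgeR adjusted p 0.106), and Lif, leukaemia inhibitory factor, at 2.77 (SE 0.98, adjusted p 0.196). Clcf1 held 0.86, 0.29 and 2.91 CPM in Control and 9.94, 5.59 and 7.30 CPM in Glutamate, with no overlap. Lif held 0, 1.77 and 1.67 CPM in Control and 9.69, 15.5 and 3.31 CPM in Glutamate, also without overlap. Ranges without overlap in Glutamate against Control were seen for 12.2% of all genes. Vgf, which yields neuropeptides and is induced by neurotrophins, was higher at 2.77 (SE 0.73, adjusted p 0.0837). Its Control libraries held 10.8, 9.42 and 21.4 CPM, Glutamate 148, 19.7 and 24.9 CPM and Glutamate_vesicles 135, 147 and 263 CPM, so Glutamate 2 overlapped with Control and the vesicle libraries did not.

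Of 7 tested FGF genes, 2 were lower past that criterion (list median -0.57): Fgf18 at -1.78 (SE 0.71, edgeR adjusted p 0.268) and Fgf9, a growth factor largely of neurons, at -1.46 (SE 0.48, adjusted p 0.157). Fgf9 was at 23.4, 9.47 and 5.12 CPM in Control and at 5.68, 2.86 and 6.71 CPM in Glutamate, which overlap. Met, the receptor of hepatocyte growth factor, was lower at -1.78 (SE 0.66, adjusted p 0.228) and, with Vgf higher, made up the 2 of 7 other trophic genes (median 0.52). It held 11.7, 35.8 and 45.7 CPM in Control, 4.91, 11.2 and 4.28 CPM in Glutamate and 19.7, 135 and 2.80 CPM in Memantine, the last value being that of Memantine 3. Frs3, a docking adaptor of FGF and Trk receptors, was lower at -0.68 (SE 0.30, adjusted p 0.332), 1 of 9 adaptors (median 0.03). Of all genes 8.97% were lower past the criterion, so 1 of 9 is near that share. None of 5 tested genes of the neurotrophin list (median -0.08) or of 5 of the GDNF list (median -0.73) passed. The median over all genes was 0.05, and that of the 6 tested members 0.35.

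Glutamate against Control had Clcf1 (2.43), Lif (2.89) and Vgf (2.20) higher and Met (-2.19) lower past the looser criterion on the log2 scale. Fgfbp3, a secreted carrier of FGFs, was lower there at -1.09 (SE 0.34, edgeR adjusted p 0.329) and higher at 1.26 (SE 0.34, adjusted p 1.00) in Glutamate_BPC against Glutamate. Its values were 14.6, 9.18 and 15.5 CPM in Control, 5.17, 5.21 and 7.98 CPM in Glutamate and 18.2, 12.5 and 13.2 CPM in Glutamate_BPC, both without overlap with Glutamate. Of all genes 12.2% were without overlap between Glutamate and Control and 7.13% between Glutamate_BPC and Glutamate. In Memantine against Glutamate, Met was higher at 2.94 (SE 1.04, adjusted p 0.627) past that criterion. Over the 6 groups Clcf1, Fgfbp3, Met and Vgf had an unadjusted p below 0.05.

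**Figure D4:**
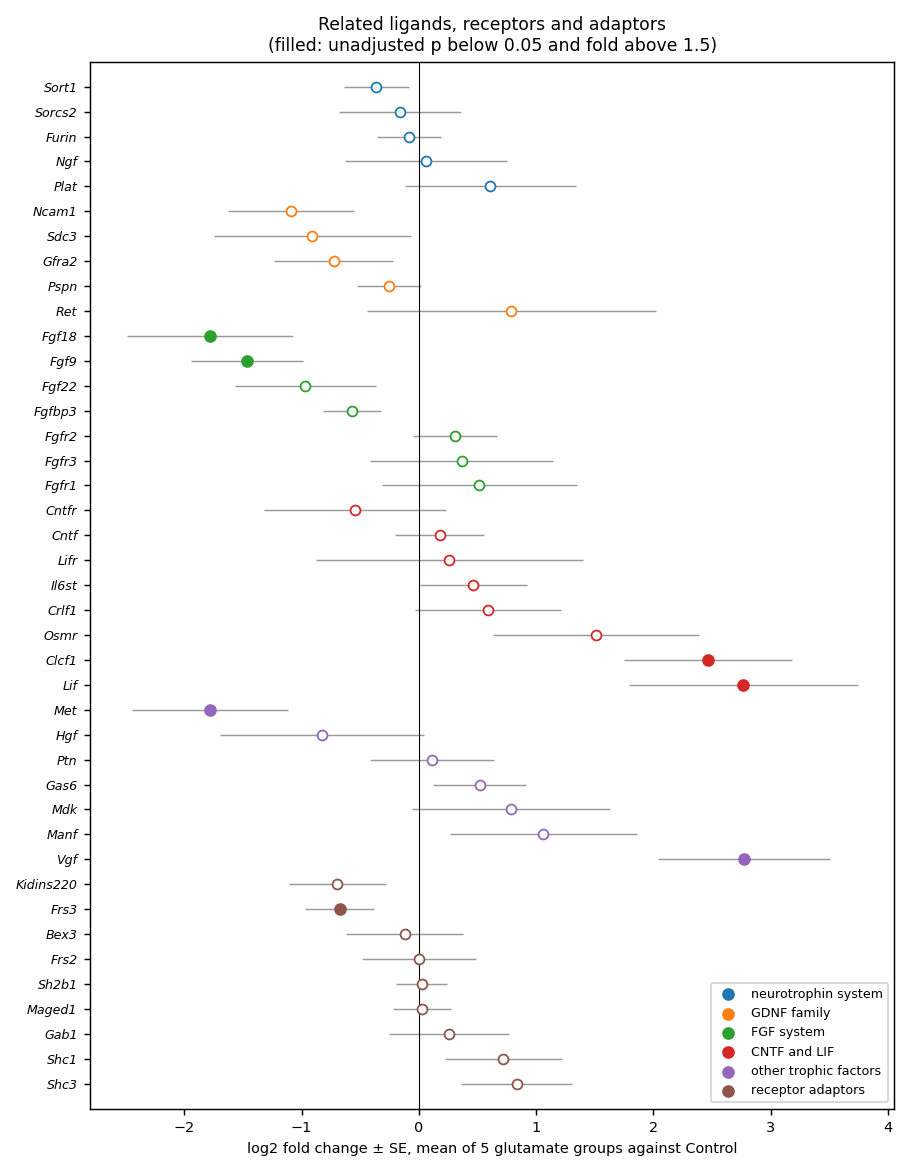
Log2 fold change with its SE in the mean of the 5 glutamate groups against Control (horizontal axis) for the related genes tested, coloured by list and filled where the looser criterion was passed. Lif, Clcf1 and Vgf lie furthest to the right at 2.47 to 2.77, and Fgf18, Met, Fgf9 and Frs3 are the filled symbols on the left.

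The genes whose log2 CPM ran most like each member over the 18 libraries are given as a description, since the libraries share treatment, replicate number and depth. Fgf2 ran most like Hbegf (Pearson r 0.89), an EGF-family ligand, and then Phlda1 (0.86) and Ccn1 (0.82). Ntf3 ran most like Icam5 (0.89), an adhesion molecule of forebrain neurons, Matcap1 (0.89) and Neurod6 (0.89), a transcription factor of cortical neurons. Bdnf ran with Sesn2 (0.84), a stress-induced gene, Ncam2 (0.77) and Abcb1a (0.76). For the receptors, Ntrk2 ran with Wasf2 (0.85), Arhgap5 (0.81) and Slc5a3 (0.81), Ntrk3 with Eif4g3 (0.97), Srcap (0.96) and Hipk2 (0.95), and Gfra1 with Cavin1 (0.95), Nedd1 (0.94) and Emp1 (0.93). Among the members themselves the highest r was that of Bdnf and Fgf2 (0.67), followed by Ntrk3 and Gfra1 (0.55), and the ligand-receptor pairs Bdnf and Ntrk2 (0.19) and Ntf3 and Ntrk3 (-0.02) did not run together.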

How the data were processed

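Per the labels and the study's methods, poly(A) RNA was sequenced and the authors quantified transcripts with Salmon and summed them to genes with tximport (labels: STAR, Salmon, rn6). The deposited values are expected counts of 31463 rows in each of 18 libraries. They were rounded to whole numbers, which the design had allowed for. Total counts were 8409574 to 17206354. The labels and the methods name different library kits. Counts were normalised by TMM, filtered with filterByExpr (minimum count 10, minimum total 15) to 14398 genes, and tested with the quasi-likelihood F test of edgeR 4.0.16 in R 4.3.3, with 1 mean per group over all 18 libraries, 12 residual degrees of freedom, and Benjamini-Hochberg adjustment over all genes. Log2 CPM used a prior count of 2. Each SE was derived from the test, as the absolute log2 fold change over the square root of its F statistic. The groups came from the labels, in 6 comparisons and a test over 6 groups. The tests were checked on simulated data. There the reported test recovered none of the changed genes in Glutamate against Control and a minority in the 5 groups against Control. A missing call therefore says little.

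Alternatives were DESeq2 1.42.0, its size factors in edgeR, the likelihood-ratio test, no filter, no ribosomal RNA rows (78 rows), the replicate number as a block, and leaving out each library. The members and lists were chosen with earlier results of these data known. Named genes were all members, list genes past either criterion (at most 3 per list and comparison) and the 3 genes most like each tested member among those whose log2 CPM averaged 1 or more. Same-numbered libraries deviated together (r 0.44 to 0.89) in Memantine, Glutamate_secret and Glutamate_BPC with Glutamate, so the numbers were taken to pair these. Promoters came from RefSeq (GRCr8), an assembly other than that of the counts, and were used for sequence only. Endothelial Cldn5 was not analysed here.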

Additional observations from a re-analysis of the deposited data

How the results depend on the processing

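The Fgf2 difference from Control kept its direction in every fit, and its call depended on the test. Members called at the adjusted p were 0 in the reported fits; DESeq2 called 1 (Fgf2) in Glutamate against Control, in the 5 glutamate groups against Control and over the 6 groups, and the likelihood-ratio test called 1 (Fgf2) in the last 2. DESeq2 put 1 member (Ntrk2, -0.75) past the looser criterion in Glutamate_vesicles against Glutamate. The replicate numbers were not taken to pair Glutamate or the 5 groups with Control (same-number r of 0.59, 0.57 and -0.12, and 0.65, 0.59 and -0.22, for numbers 1, 2 and 3) or vesicles with Glutamate (0.77, 0.84 and 0.005). In each of these the value for number 3 was low. The study removed a day effect for its plots without saying which libraries share a day, and 14 of 18 libraries correlated best with their own number. With the replicate block 3 members (Fgf2, Bdnf and Ntf3) passed the looser criterion in Glutamate against Control, 2 members were called in the 5 groups against Control (Fgf2 2.29, adjusted p 0.0197; Ntf3 -2.98, adjusted p 0.0212), 2 passed over the 6 groups, and Ntf3 in vesicles against Glutamate turned to 0.63. The block changed no other call at the adjusted p among members.

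Leaving out 1 library at a time, members past the looser criterion ranged from 1 to 2 in Glutamate against Control, 0 to 1 in Memantine, 0 to 2 in Glutamate_vesicles and 0 to 1 in Glutamate_secret against Glutamate, 1 to 3 in the 5 groups against Control, and 0 to 2 over the 6 groups. Signs turned within these ranges of log2 fold change: Ntrk3 -0.54 to 0.83 in Glutamate and -0.58 to 0.54 in the 5 groups against Control, and -0.71 to 0.86, -0.77 to 0.44 and -1.69 to 0.088 in Memantine, vesicles and secret against Glutamate; Ntrk2 -0.030 to 0.43 in the 5 groups; Gfra1 -1.09 to 0.42, -0.75 to 0.76 and -0.43 to 0.46 in Memantine, secret and BPC against Glutamate; Fgf2 -0.041 to 0.95, -0.085 to 0.38 and -0.032 to 0.29, and Ntf3 -0.71 to 5.11, -1.03 to 5.60 and -1.55 to 4.27, in vesicles, secret and BPC against Glutamate. The high Ntf3 values come without Glutamate 1, when both remaining Glutamate libraries are at 0, and are no bounds. The causes were not tested.

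Genes called at the adjusted p, reported then DESeq2, likelihood-ratio test and replicate block, were 0, 232, 45 and 166 in Glutamate against Control, 173, 641, 558 and 1113 in the 5 groups, and 1, 717, 587 and 497 over the 6 groups; without the filter on low counts the last 2 were 79 and 5. Against Glutamate, where 0 were called, DESeq2 called 2 in Memantine, 3 in vesicles and 1 in BPC, and the likelihood-ratio test 2 in vesicles. Past the looser criterion, the block gave 2111 genes for 1162 in Glutamate against Control, 2863 for 1815 in the 5 groups, 2265 for 1116 over the 6 groups (DESeq2 1718) and 1146 for 729, 460 for 155, 463 for 97 and 481 for 153 in Memantine, vesicles, secret and BPC, DESeq2 154 for 97 in secret, and no filter 255, 184 and 272 in vesicles, secret and BPC. Leaving out 1 library, the genes called ranged from 0 (without Control 2) to 438 (without Memantine 2) in the 5 groups, within 1.5 times of 173 only without Glutamate 1 or Glutamate_secret 2, and without Memantine 3 were 63 in Glutamate against Control, 254 in Memantine and 500 over the 6 groups. Past the looser criterion they ranged from 729 to 1400 in Glutamate and 1315 to 2314 in the 5 groups against Control, 862 to 1965 over the 6 groups, and 416 to 1976 (without Memantine 3), 51 to 246, 61 to 957 (without Glutamate_secret 2) and 89 to 235 in Memantine, vesicles, secret and BPC against Glutamate. Few counts of Ntf3, Ngfr, Gdnf and Fgf2 limit what these 3 libraries a group can show.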
